A study of Homo sapiens with 21 samples.

Results

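The genes described here carry glucose into the cell, run glycolysis, make and export lactate, or belong to the transcriptional response to low oxygen. They were chosen by name: rows of both deposited count tables whose Ensembl gene identifier maps to 1 of 37 listed symbols, of 60668 gene identifiers in all. All 37 were found once, and all 37 passed the filter on low counts in both tables. The cells were HCC1806, an established human triple-negative breast cancer line, grown as adherent layers in DMEM with serum, and polyadenylated RNA was sequenced from 21 libraries in 7 groups of 3. The first table holds 3xCTL (genotype labelled control), 3xSR (the splicing factor genes SRSF2, SRSF3 and SRSF7 overexpressed together, per the series title) and MYC-OE (the transcription factor gene MYC overexpressed). The second holds 1xCtrl (labelled as a single plasmid control) and the lines labelled SRSF2-OE, SRSF3-OE and SRSF7-OE, each overexpressing 1 of those splicing factors. Each line was compared with the control of its own table, and MYC-OE was compared with 3xCTL because the labels set them side by side; the sources used here do not state which vectors MYC-OE cells carry, nor whether a line is 1 clone. Nothing states that the replicates came from separate cultures, so p-values measure only the spread between these libraries, which may be technical.

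Glucose enters through facilitative transporters, is phosphorylated by hexokinase, and is split by the preparatory enzymes into triose phosphates that the payoff enzymes turn into pyruvate. Pyruvate then either becomes lactate, which monocarboxylate transporters export, or enters mitochondria through pyruvate dehydrogenase, which pyruvate dehydrogenase kinase holds shut. When oxygen falls, the HIF1A protein escapes hydroxylation and breakdown, and the HIF complex binds short DNA elements with an ACGTG or GCGTG core near many of these same genes; MYC is also known to bind CACGTG elements near glycolytic genes. HIF activity is set mainly at the level of the HIF1A protein, which these RNA counts do not measure.

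Library depth ran from 143269192 to 303323552 counts, so a floor of 3 counts corresponds to 0.00947 to 0.021 CPM (counts scaled by library size and TMM factor), below the level of every gene in the set. As a check of the labels, MYC averaged 93.4 CPM in 3xCTL, 157 in 3xSR and 174 in MYC-OE. SRSF3 and SRSF7 were higher in the lines named for them and in 3xSR. SRSF2 was not: it averaged 398.5 ± 19.6 CPM (SD, n = 3) in the libraries labelled SRSF2-OE against 444 ± 31.4 in 1xCtrl (edgeR's adjusted p = 0.098), and 386 ± 12.04 in the libraries labelled 3xSR against 403 ± 18.3 in 3xCTL (edgeR's adjusted p = 0.389). These counts do not show raised SRSF2 in either line, so below, 3xSR and SRSF2-OE stand for the libraries labelled so. SRSF3 and SRSF7 were also called higher in the libraries labelled SRSF2-OE than in 1xCtrl. Compared directly with those libraries, SRSF3 was not called higher in SRSF3-OE, nor SRSF7 in SRSF7-OE. MYC was itself higher in the libraries labelled 3xSR (log2 fold change 0.75), in SRSF3-OE (0.26) and in SRSF7-OE (0.27). One control library in each table stood apart: counts depended on transcript GC content with a slope of 0.287 log2 units per 10 GC percentage points in 1xCtrl replicate 2, against -0.087 and -0.188 in the other 1xCtrl libraries, and of -0.142 in 3xCTL replicate 2, against 0.116 and 0.114. The epithelial markers KRT5 (1600 to 2650 CPM) and EPCAM (517 to 705 CPM) were abundant. Of the receptor genes, PGR was at 0 to 1.46 CPM and ESR1 at 6.49 to 11.5 CPM, but ERBB2 was at 99.6 to 184 CPM. The summed endothelial markers stayed at or under 1.28 CPM. The summed fibroblast markers ran from 6.46 to 16.8 CPM, mostly COL1A1 (5.46 to 15.7 CPM). The summed leukocyte markers ran from 6.14 CPM in a 3xCTL library to 36.5 CPM in a MYC-OE library, nearly all of it CD68 (5.92 to 36.1 CPM). The other leukocyte markers stayed low: PTPRC at 0.126 to 0.539 CPM, LYZ at 0 to 0.0827 CPM and CD3E at 0 to 0.0254 CPM. The source of the CD68 counts, and their part in any result below, was not tested. In bulk RNA, fewer cells of a kind and less RNA per cell cannot be told apart.

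Promoters of 4 genes are shown because the results turn on them: BNIP3 and LDHB were called higher in all 5 lines, EGLN3 had the largest increase, and CA9 was called in opposite directions in different lines. Each run is the 250 bases before the RefSeq start site on GRCh38.p14, in the gene's direction; capitals mark ACGTG or GCGTG on either strand. The positions are chr10:131981924-131982173 (minus strand) for BNIP3, chr9:35673678-35673927 (plus strand) for CA9, chr14:33951075-33951324 (minus strand) for EGLN3 and chr12:21657843-21658092 (minus strand) for LDHB.
BNIP3: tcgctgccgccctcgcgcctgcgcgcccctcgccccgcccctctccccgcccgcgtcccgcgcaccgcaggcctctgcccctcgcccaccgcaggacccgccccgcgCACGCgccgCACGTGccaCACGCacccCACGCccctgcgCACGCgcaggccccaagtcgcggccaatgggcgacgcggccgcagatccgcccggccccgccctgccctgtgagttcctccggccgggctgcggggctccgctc
CA9: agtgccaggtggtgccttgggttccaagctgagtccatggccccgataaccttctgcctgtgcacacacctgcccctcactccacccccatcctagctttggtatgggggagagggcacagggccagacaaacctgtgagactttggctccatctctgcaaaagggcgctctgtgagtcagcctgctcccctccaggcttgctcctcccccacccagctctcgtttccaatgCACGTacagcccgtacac
EGLN3: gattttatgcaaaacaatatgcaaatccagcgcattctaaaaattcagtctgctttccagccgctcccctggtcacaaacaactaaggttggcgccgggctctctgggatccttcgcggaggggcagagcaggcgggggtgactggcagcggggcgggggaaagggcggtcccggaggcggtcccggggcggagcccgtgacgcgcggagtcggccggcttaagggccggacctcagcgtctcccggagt
LDHB: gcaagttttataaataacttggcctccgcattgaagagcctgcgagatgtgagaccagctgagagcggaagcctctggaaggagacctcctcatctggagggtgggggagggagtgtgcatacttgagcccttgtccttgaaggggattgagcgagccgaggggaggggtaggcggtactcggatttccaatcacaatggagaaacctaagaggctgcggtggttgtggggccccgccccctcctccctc
The BNIP3 run holds 4 matches to GCGTG and 1 CACGTG, which reads as ACGTG on both strands and so counts as 2 matches. The CA9 run holds 1 ACGTG, preceded by T on its own strand (TACGTG). Neither core is in the EGLN3 or LDHB run, which says only that these letters are not in this window. RefSeq start sites were matched for 32 of the 37 genes, with 59 windows, and windows of 1 gene can overlap; SLC2A3, SLC16A1, VEGFA, NDRG1 and BNIP3L were not matched. ACGTG lay in 22 of these 59 windows (37.3%) and in 18.5% of all 35116 windows of the same length; GCGTG lay in 32.2% of the genes' windows and 32.2% of all windows. TACGTG was in 13.6% and 2.76%, and CACGTG in 13.6% and 6.34%. A match is a description of letters, not a measured binding site.

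In MYC-OE, most of the set was higher than in 3xCTL: 24 of 37 genes rose and 2 fell (edgeR quasi-likelihood test, Benjamini-Hochberg adjusted p under 0.05), where 35.3% of all 23160 genes tested were called, 18% higher and 17.3% lower. The median log2 fold change of the set was 0.31, against a median of -0.0046 over all genes. In the libraries labelled 3xSR, 14 rose and 5 fell, where 29% of all genes were called, 15.3% higher and 13.7% lower, and the set's median was 0.046. In the libraries labelled SRSF2-OE, 10 rose and 1 fell (23.5% of all 24362 genes called, 11.6% higher and 11.9% lower). SRSF3-OE had 11 higher and 7 lower (29.2% called, 15% higher and 14.1% lower), and SRSF7-OE had 13 higher and 1 lower (17.3% called, 9.03% higher and 8.26% lower). Most of these genes are abundant, and abundant genes are called more often: among all genes at 5 CPM or more, 45.8% were called in MYC-OE, 38% in 3xSR, 34.9% with SRSF2-OE, 41.7% with SRSF3-OE and 26.1% with SRSF7-OE. The share of the set that was called was 70.3%, 51.4%, 29.7%, 48.6% and 37.8% in that order, so the share in the libraries labelled SRSF2-OE lay below that of genes of 5 CPM or more. Of genes at 5 CPM or more, those called higher and lower were 21.4% and 24.5% in MYC-OE, 19.4% and 18.6% in 3xSR, 17.5% and 17.3% with SRSF2-OE, 27.1% and 14.5% with SRSF3-OE, and 14% and 12.1% with SRSF7-OE. The set's 29.7% higher and 18.9% lower in SRSF3-OE stand near these shares. The 2 comparisons against 3xCTL share its libraries, and the 3 against 1xCtrl share its libraries.

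**Figure D1:**
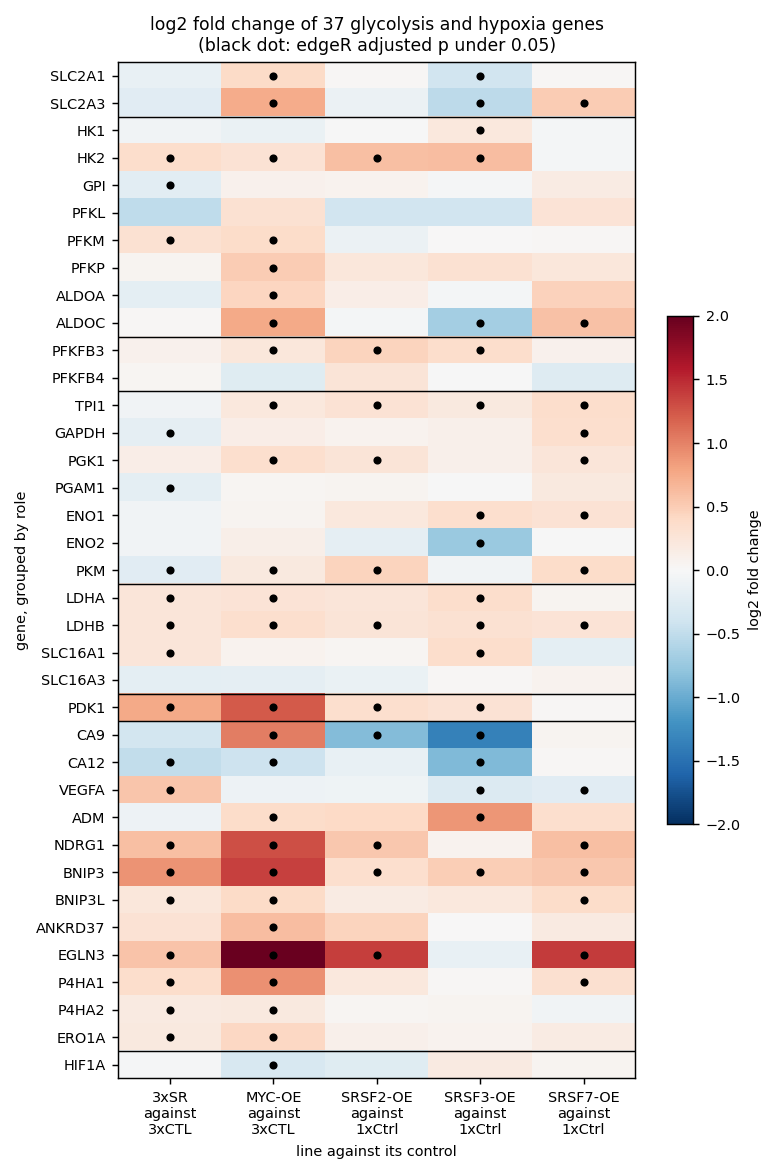
log2 fold change of each of the 37 genes (rows, grouped by role) in the 5 lines against their controls (columns); colour gives the value from -2 to 2, and a black dot marks an edgeR adjusted p under 0.05. The MYC-OE column has 24 genes called higher and 2 lower, and the largest value is EGLN3 in MYC-OE at 1.98.

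**Figure D2:**
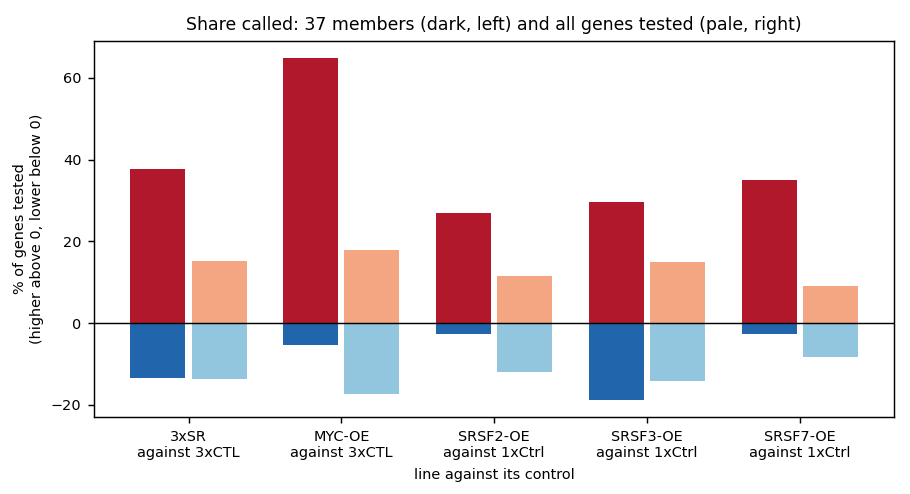
Percent of genes called higher (above 0) and lower (below 0) in each line against its control, for the 37 genes (dark bars) and for all genes tested (pale bars). In MYC-OE 64.9% of the 37 genes were called higher, against 18% of all genes.

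Leaving out a library moved several of these counts by more than 1.5 times. Without 3xCTL replicate 2, 1 of the libraries that stood apart, 11 genes were lower in the libraries labelled 3xSR and 6 in MYC-OE, while those called higher stayed at 14 and 24. Without 1xCtrl replicate 2, the other such library, the counts higher and lower were 14 and 3 in SRSF2-OE, 12 and 7 in SRSF3-OE and 19 and 2 in SRSF7-OE. Without 3xSR replicate 1 only 9 genes were higher in the libraries labelled 3xSR, without 3xSR replicate 3 only 2 were lower, and without 3xCTL replicate 1 only 3 were lower. SRSF7-OE fell to 8 higher and 0 lower by edgeR without 1xCtrl replicate 1, and likewise without SRSF7-OE replicate 2. Its count of lower genes was 2 without 1xCtrl replicate 3, and the libraries labelled SRSF2-OE had 3 lower without their replicate 1. With each library's GC trend removed, the counts higher and lower were 16 and 5 in 3xSR, 26 and 6 in MYC-OE, 16 and 4 with SRSF2-OE, 14 and 7 with SRSF3-OE and 17 and 3 with SRSF7-OE. The shares of all genes called in these runs are not given here. Whether the set's counts moved more than those of all genes was not tested.

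Compared per kilobase of merged exons, GAPDH, ENO1 and LDHA were the most abundant of the set in both controls. GAPDH stood highest at 868 CPM per kb in 3xCTL and 694 in 1xCtrl, followed by ENO1 (366 and 280) and LDHA (232 and 234). TPI1, LDHB, PKM, ALDOA, PGAM1, SLC2A1 and SLC16A1 filled the next places, from 170 to 64.6 CPM per kb in 3xCTL. The HIF target genes spread widely, from P4HA1 (34 and 50.5 CPM per kb), ERO1A (31.1 and 38.9) and VEGFA (14.1 and 24.8) down to the scarcest of the set. EGLN3 stood last at 0.129 and 0.185 CPM per kb, below ANKRD37 (0.17 and 0.271), PDK1 (0.662 and 1.2) and SLC2A3 (0.909 and 0.961). Together the 37 genes took 1.26 ± 0.0681% (SD, n = 3) of all counts in 3xCTL, 1.22 ± 0.0411% in 3xSR and 1.41 ± 0.0142% in MYC-OE, and the MYC-OE libraries (1.4 to 1.43%) lay above all 3xCTL libraries (1.19 to 1.33%). They took 1.14 ± 0.0735% in 1xCtrl, 1.22 ± 0.0741% with SRSF2-OE, 1.16 ± 0.0462% with SRSF3-OE and 1.32 ± 0.0144% with SRSF7-OE. The SRSF7-OE libraries (1.3 to 1.33%) likewise lay above all 1xCtrl libraries (1.08 to 1.22%), and SRSF2-OE and SRSF3-OE overlapped 1xCtrl.

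SLC2A1 and SLC2A3, the glucose uptake genes of the set, rose in MYC-OE and fell in SRSF3-OE. SLC2A1 encodes GLUT1, the main glucose transporter of most proliferating cells, and lies at chr1:42925375-42959176 (GRCh38, minus strand). It stood at 533, 464 and 575 CPM in 3xCTL, 470.3, 478 and 465 in 3xSR and 678, 702 and 669.6 in MYC-OE. SLC2A1 in the second table stood at 509, 576 and 491 CPM in 1xCtrl, 535, 520.5 and 553 with SRSF2-OE, 429, 388 and 399 with SRSF3-OE and 567, 516 and 523 with SRSF7-OE. Every MYC-OE library lay above every 3xCTL library and every SRSF3-OE library below every 1xCtrl library, with log2 fold changes of 0.38 (SE 0.0678, edgeR's adjusted p = 0.000903) and -0.38 (SE 0.0709, edgeR's adjusted p = 0.0014). The change in 3xSR was -0.15 (SE 0.0678, edgeR's adjusted p = 0.111), with overlapping libraries; without 3xCTL replicate 2 it was called lower. SLC2A3 encodes GLUT3, a transporter of high affinity, and was far scarcer per kilobase. It stood at 5.42, 5.38 and 5.999 CPM in 3xCTL, 4.28, 5.21 and 4.80 in 3xSR and 9.40, 9.46 and 9.39 in MYC-OE, a change in MYC-OE of 0.75 (SE 0.0908, edgeR's adjusted p = 5.47e-05). In 1xCtrl it stood at 5.75, 5.79 and 6.21 CPM, in SRSF2-OE at 4.96, 5.12 and 6.22, in SRSF3-OE at 4.03, 4.20 and 4.14 and in SRSF7-OE at 9.18, 8.51 and 7.67. The SRSF3-OE libraries lay below and the SRSF7-OE libraries above all 1xCtrl libraries, with changes of -0.52 (SE 0.105, edgeR's adjusted p = 0.0022) and 0.51 (SE 0.105, edgeR's adjusted p = 0.00512). The direct comparison of SRSF7-OE with SRSF3-OE gave 1.04 (SE 0.106, edgeR's adjusted p = 8.56e-06), and 3xSR and SRSF2-OE did not pass the test (-0.23 and -0.12).

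Of the 8 preparatory enzyme genes, 5 rose in MYC-OE, and 2 rose and 1 fell in each of 3xSR and SRSF3-OE. In each of SRSF2-OE and SRSF7-OE, 1 rose. Genes at 5 CPM or more were called at 45.8% (MYC-OE), 38% (3xSR), 41.7% (SRSF3-OE), 34.9% (SRSF2-OE) and 26.1% (SRSF7-OE). The counts for 3xSR and SRSF3-OE stand near these shares, and those for SRSF2-OE and SRSF7-OE lie below them. Only the MYC-OE count lies above its share, and that difference was not tested. HK2, the inducible hexokinase that binds mitochondria, lies at chr2:74833981-74893359 (plus strand). Its levels were 30.8, 30.6 and 28.9 CPM in 3xCTL, 39.2, 37.9 and 38.0 in 3xSR and 38.5, 35.8 and 36.0 in MYC-OE. HK2 in the second table measured 32.9, 33.1 and 33.1 CPM in 1xCtrl, 49.2, 51.1 and 49.5 with SRSF2-OE, 52.8, 48.5 and 50.9 with SRSF3-OE and 30.5, 33.9 and 32.3 with SRSF7-OE. SRSF7-OE overlapped its control and the other 4 lines did not. The changes were 0.35 (SE 0.0519, edgeR's adjusted p = 0.000349) in 3xSR, 0.29 (SE 0.0518, edgeR's adjusted p = 0.001) in MYC-OE, 0.60 (SE 0.0572, edgeR's adjusted p = 1.56e-05) in SRSF2-OE and 0.62 (SE 0.0572, edgeR's adjusted p = 6.46e-06) in SRSF3-OE, each kept in every alternative run. SRSF7-OE was lower than SRSF3-OE in the direct comparison (-0.65, SE 0.0572, edgeR's adjusted p = 2.19e-06) and lower than SRSF2-OE (-0.63, SE 0.0571, edgeR's adjusted p = 1.02e-05). Its partner HK1, the constitutive hexokinase, remained more abundant, and the log2 ratio of HK1 to HK2 per kilobase was 2.28 ± 0.066 (SD, n = 3) in 3xCTL, 1.85 ± 0.047 in 3xSR and 1.85 ± 0.074 in MYC-OE. It was 2.08 ± 0.037 in 1xCtrl, 1.47 ± 0.083 with SRSF2-OE, 1.67 ± 0.039 with SRSF3-OE and 2.08 ± 0.053 with SRSF7-OE. HK1 itself was called only in SRSF3-OE, at 0.21 (SE 0.0586, edgeR's adjusted p = 0.0175). The HK1 call in SRSF3-OE was lost when 1xCtrl replicate 1 or 3 or SRSF3-OE replicate 1 or 3 was left out (edgeR's adjusted p 0.166 to 0.259). It was also lost with upper-quartile scaling, total counts alone, no filter and a fit of the 2 groups only.

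The phosphofructokinase and aldolase genes moved unequally. Phosphofructokinase catalyses the committed step of glycolysis and has muscle (PFKM), platelet (PFKP) and liver (PFKL) forms. PFKM rose in the libraries labelled 3xSR (0.31, SE 0.0468, edgeR's adjusted p = 0.000395) and in MYC-OE (0.36, SE 0.0468, edgeR's adjusted p = 9.01e-05), from 77.8, 83.6 and 79.3 CPM in 3xCTL to 101, 101 and 97.1 and 103, 102 and 104. PFKP rose in MYC-OE (0.51, SE 0.0789, edgeR's adjusted p = 0.000361), where its libraries stood at 159, 156 and 169.8 CPM against 127, 98.4 and 116. PFKL passed the test in none of the 5 lines. ALDOC, the aldolase typical of brain, lies at chr17:28573115-28577264 (minus strand) and was called in both directions. It stood at 27.1, 18.2 and 24.2 CPM in 3xCTL, 24.2, 23.0 and 23.6 in 3xSR and 40.0, 40.0 and 37.7 in MYC-OE, a change in MYC-OE of 0.76 (SE 0.116, edgeR's adjusted p = 0.000563). ALDOC in the second table stood at 27.1, 27.4 and 24.3 CPM in 1xCtrl, 28.4, 25.2 and 22.7 with SRSF2-OE, 15.7, 16.2 and 17.1 with SRSF3-OE and 40.5, 38.6 and 38.6 with SRSF7-OE. SRSF3-OE lay wholly below and SRSF7-OE wholly above 1xCtrl, with changes of -0.69 (SE 0.0822, edgeR's adjusted p = 4.91e-05) and 0.58 (SE 0.0818, edgeR's adjusted p = 0.000688). The direct comparison of the 2 lines gave 1.27 (SE 0.0829, edgeR's adjusted p = 2.03e-07). ALDOA, the main aldolase, rose in MYC-OE (0.44, SE 0.107, edgeR's adjusted p = 0.00966), to 761, 771 and 793 CPM from 657, 459 and 602; 1657 of its 3916 exonic bases are shared with another gene on the same strand. GPI fell in 3xSR (-0.22, SE 0.0512, edgeR's adjusted p = 0.00784), a call lost with the GC trend removed (edgeR's adjusted p = 0.0743).

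**Figure D3:**
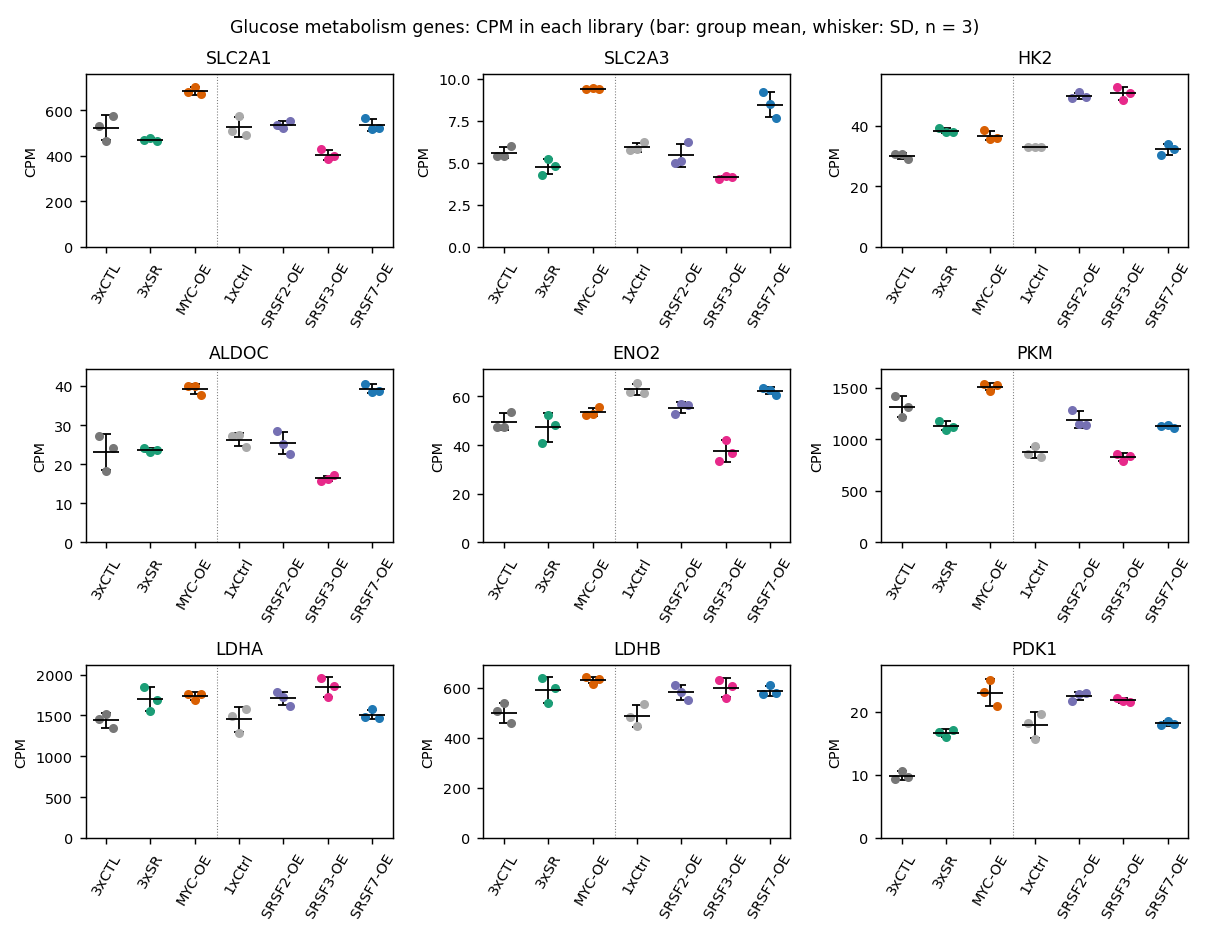
CPM of 9 glucose metabolism genes in each library (points), with the group mean (bar) and SD (whisker, n = 3); the dotted line parts the 2 count tables, which were scaled separately. HK2 is higher than its control in 4 lines and not in SRSF7-OE, and ALDOC is low in SRSF3-OE (15.7 to 17.1 CPM) and high in SRSF7-OE (38.6 to 40.5 CPM).

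PFKFB3 and PFKFB4 make and remove fructose 2,6-bisphosphate, the activator of phosphofructokinase. PFKFB3 stood at 73.7, 84.5 and 77.6 CPM in 1xCtrl, 106, 111 and 105 in SRSF2-OE and 101, 96.1 and 104 in SRSF3-OE. Both lines lay above the control, by 0.45 (SE 0.06, edgeR's adjusted p = 0.000188) and 0.36 (SE 0.06, edgeR's adjusted p = 0.000623), and MYC-OE rose by 0.23 (SE 0.0476, edgeR's adjusted p = 0.00239). The direct comparison of MYC-OE with 3xSR gave 0.14 (SE 0.0476, edgeR's adjusted p = 0.0341) and turned to -0.038 (edgeR's adjusted p = 0.518) with the GC trend removed. It was also not called without any 1 of the 6 libraries compared (edgeR's adjusted p 0.0549 to 0.105). PFKFB4 passed the test against no control, and its range over all libraries was 7.58 to 11.7 CPM. SRSF7-OE was lower than SRSF2-OE for PFKFB4 (-0.50, SE 0.109, edgeR's adjusted p = 0.00475). The PFKFB4 call in SRSF7-OE against SRSF2-OE was lost when SRSF2-OE replicate 2 or SRSF7-OE replicate 2 was left out (edgeR's adjusted p 0.0513 to 0.0569).

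Among the 7 payoff genes, 5 rose in SRSF7-OE, 3 in MYC-OE and 3 in SRSF2-OE. For SRSF3-OE 2 rose and 1 fell, and for 3xSR 3 fell. The shares of genes at 5 CPM or more called were 26.1% (SRSF7-OE), 45.8% (MYC-OE), 34.9% (SRSF2-OE), 41.7% (SRSF3-OE) and 38% (3xSR). Only the SRSF7-OE count stands well above its share, a difference that was not tested, and the other counts stand near theirs. PKM encodes the muscle pyruvate kinase, whose splice forms these gene counts do not separate, and lies at chr15:72199029-72231822 (minus strand). It stood at 1417, 1215 and 1314 CPM in 3xCTL, 1178, 1091 and 1118 in 3xSR and 1538, 1469 and 1525 in MYC-OE. PKM in the second table stood at 855, 929.7 and 829.8 CPM in 1xCtrl, 1284, 1151 and 1135 with SRSF2-OE, 860.2, 788 and 835 with SRSF3-OE and 1125, 1141 and 1107 with SRSF7-OE. The SRSF2-OE and SRSF7-OE libraries all lay above 1xCtrl, and SRSF3-OE overlapped it. PKM rose by 0.45 (SE 0.0671, edgeR's adjusted p = 0.000421) in SRSF2-OE and 0.37 (SE 0.0671, edgeR's adjusted p = 0.00278) in SRSF7-OE, both kept in every alternative run. It fell by 0.22 on the log2 scale in 3xSR (SE 0.06, edgeR's adjusted p = 0.0163) and rose by 0.20 (SE 0.06, edgeR's adjusted p = 0.0213) in MYC-OE, and the direct comparison of MYC-OE with 3xSR gave 0.42 (SE 0.06, edgeR's adjusted p = 0.000263). The PKM call in 3xSR was lost when 3xCTL replicate 1 or 3xSR replicate 2 or 3 was left out (edgeR's adjusted p 0.0512 to 0.0654). The PKM call in MYC-OE was lost when 3xCTL replicate 3 or MYC-OE replicate 1 or 3 was left out (edgeR's adjusted p 0.051 to 0.0785). The MYC-OE call was also lost with total counts alone and in a fit of the 2 groups only. With the GC trend removed the 3xSR value was -0.095 (edgeR's adjusted p = 0.193).

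GAPDH, the glyceraldehyde phosphate dehydrogenase often used as a loading control, was not constant. Its levels were 2789, 2393 and 2577 CPM in 3xCTL, 2353, 2292 and 2227 in 3xSR and 2886, 2825 and 2796 in MYC-OE. In 1xCtrl they were 2016, 2354 and 1833 CPM, in SRSF2-OE 2443, 2024 and 2010, in SRSF3-OE 2285, 2114 and 2272 and in SRSF7-OE 2559, 2642 and 2598. All 3xSR libraries lay below 3xCTL and all SRSF7-OE libraries above 1xCtrl, with changes of -0.18 (SE 0.0581, edgeR's adjusted p = 0.0403) and 0.33 (SE 0.0953, edgeR's adjusted p = 0.0303). The GAPDH call in 3xSR was lost when 3xCTL replicate 1 or 3 or 3xSR replicate 1, 2 or 3 was left out (edgeR's adjusted p 0.0596 to 0.15). The GAPDH call in SRSF7-OE was lost when 1xCtrl replicate 1 or 3 or SRSF7-OE replicate 1, 2 or 3 was left out (edgeR's adjusted p 0.146 to 0.214). Both calls were also lost with no filter and in fits of the 2 groups only. With the GC trend removed, the value in 3xSR was -0.010 (edgeR's adjusted p = 0.9). The direct comparison of MYC-OE with 3xSR was 0.31 (SE 0.0581, edgeR's adjusted p = 0.00163) and kept its call in every alternative.

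ENO2, the neuronal enolase, fell in SRSF3-OE. Its levels in the first table were 47.5, 47.6 and 53.7 CPM in 3xCTL, 40.9, 52.4 and 48.4 in 3xSR and 52.6, 52.7 and 55.5 in MYC-OE, with overlap. With SRSF2-OE it stood at 52.9, 56.7 and 56.6 CPM (-0.18, not called). It stood at 61.8, 65.6 and 61.6 CPM in 1xCtrl and 33.4, 42.2 and 36.8 in SRSF3-OE, without overlap, a change of -0.75 (SE 0.0764, edgeR's adjusted p = 1.39e-05), while SRSF7-OE (63.7, 62.6 and 60.7 CPM) overlapped the control. ENO1, the main enolase, rose in SRSF3-OE by 0.33 (SE 0.0795, edgeR's adjusted p = 0.00694) and in SRSF7-OE by 0.29 (SE 0.0794, edgeR's adjusted p = 0.0224). The ENO1 call in SRSF3-OE was lost when 1xCtrl replicate 1 or 3 or SRSF3-OE replicate 1 or 3 was left out (edgeR's adjusted p 0.0878 to 0.128). The ENO1 call in SRSF7-OE was lost when 1xCtrl replicate 1 or 3 or SRSF7-OE replicate 1, 2 or 3 was left out (edgeR's adjusted p 0.108 to 0.192). Both ENO1 calls were also lost in fits of the 2 groups only. The log2 ratio of ENO1 to ENO2 per kilobase was 4.25 ± 0.071 (SD, n = 3) in 1xCtrl, 5.33 ± 0.245 in SRSF3-OE and 4.56 ± 0.041 in SRSF7-OE. TPI1, triose phosphate isomerase, rose in MYC-OE (0.21, SE 0.0437, edgeR's adjusted p = 0.0029), in SRSF2-OE (0.29) and in SRSF7-OE (0.35); its call in SRSF3-OE (0.19, SE 0.0689, edgeR's adjusted p = 0.0492) came with overlapping libraries and was lost in 13 of 17 alternatives. The TPI1 call in SRSF2-OE was lost when 1xCtrl replicate 1 or 3 or SRSF2-OE replicate 1 or 2 was left out (edgeR's adjusted p 0.0719 to 0.148). The TPI1 call in SRSF3-OE was lost when 1xCtrl replicate 1 or 3 or SRSF3-OE replicate 1, 2 or 3 was left out (edgeR's adjusted p 0.13 to 0.499). The TPI1 call in SRSF7-OE was lost when 1xCtrl replicate 1 or SRSF7-OE replicate 2 was left out (edgeR's adjusted p 0.0509 to 0.0648).

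The remaining payoff genes are PGK1 and PGAM1. PGK1, phosphoglycerate kinase, rose in MYC-OE by 0.34 (SE 0.0558, edgeR's adjusted p = 0.000506), in SRSF2-OE by 0.25 (SE 0.076, edgeR's adjusted p = 0.0281) and in SRSF7-OE by 0.25 (SE 0.076, edgeR's adjusted p = 0.0392). The PGK1 call in SRSF2-OE was lost when 1xCtrl replicate 1 or 2 or SRSF2-OE replicate 1 or 2 was left out (edgeR's adjusted p 0.0563 to 0.14). The PGK1 call in SRSF7-OE was lost when 1xCtrl replicate 1 or SRSF7-OE replicate 1, 2 or 3 was left out (edgeR's adjusted p 0.0528 to 0.12). The calls in SRSF2-OE and SRSF7-OE were also lost in fits of the 2 groups only. PGAM1, phosphoglycerate mutase, fell in 3xSR by 0.19 on the log2 scale (SE 0.0498, edgeR's adjusted p = 0.014). The PGAM1 call in 3xSR was lost when 3xSR replicate 3 was left out (edgeR's adjusted p = 0.0566).

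LDHB, which favours turning lactate back into pyruvate, was called higher in all 5 lines, by small amounts. It lies at chr12:21635342-21757857 (minus strand). Its levels were 505, 537 and 458 CPM in 3xCTL, 639, 538 and 597 in 3xSR and 641, 616 and 633 in MYC-OE. LDHB in the second table measured 483, 446 and 534 CPM in 1xCtrl, 610.0, 584 and 549 with SRSF2-OE, 632, 558 and 608 with SRSF3-OE and 574, 609 and 578 with SRSF7-OE. No line overlapped its control, though the gap in 3xSR was under 1 CPM. The log2 fold changes were 0.24 (SE 0.0712, edgeR's adjusted p = 0.0237) in 3xSR, 0.33 (SE 0.0712, edgeR's adjusted p = 0.00317) in MYC-OE and 0.25 (SE 0.0746, edgeR's adjusted p = 0.0259) in SRSF2-OE. They were 0.30 (SE 0.0746, edgeR's adjusted p = 0.00853) in SRSF3-OE and 0.27 (SE 0.0746, edgeR's adjusted p = 0.0263) in SRSF7-OE. The LDHB call in 3xSR was lost when 3xCTL replicate 1 or 3 or 3xSR replicate 1 or 3 was left out (edgeR's adjusted p 0.0578 to 0.106). The LDHB call in SRSF2-OE was lost when 1xCtrl replicate 1 or 2 or SRSF2-OE replicate 1 or 2 was left out (edgeR's adjusted p 0.0597 to 0.116). The LDHB call in SRSF7-OE was lost when 1xCtrl replicate 1 or SRSF7-OE replicate 2 or 3 was left out (edgeR's adjusted p 0.0673 to 0.0788). In SRSF3-OE the LDHB call was lost with total counts alone (edgeR's adjusted p = 0.055) and in a fit of the 2 groups only (edgeR's adjusted p = 0.0575), and that fit also lost the calls in 3xSR, SRSF2-OE and SRSF7-OE. Of its 2983 exonic bases, 997 are shared with an overlapping gene on the same strand, whose reads the counting may have split.

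LDHA, which favours making lactate, stood at 1452, 1519 and 1344 CPM in 3xCTL, 1848, 1560 and 1694 in 3xSR and 1769, 1688 and 1769 in MYC-OE. LDHA in the second table stood at 1498, 1284 and 1577 CPM in 1xCtrl, 1784, 1724 and 1622 with SRSF2-OE, 1962, 1722 and 1862 with SRSF3-OE and 1481, 1576 and 1472 with SRSF7-OE. Only SRSF7-OE overlapped its control. LDHA rose by 0.24 (SE 0.067, edgeR's adjusted p = 0.0177) in 3xSR, 0.28 (SE 0.067, edgeR's adjusted p = 0.00675) in MYC-OE and 0.35 (SE 0.081, edgeR's adjusted p = 0.00558) in SRSF3-OE, and the value in SRSF2-OE was 0.24 (SE 0.0809, edgeR's adjusted p = 0.0516). The LDHA call in 3xSR was lost when 3xCTL replicate 3 or 3xSR replicate 1 or 3 was left out (edgeR's adjusted p 0.055 to 0.0781). The log2 ratio of LDHA to LDHB per kilobase was 0.516 ± 0.054 (SD, n = 3) in 1xCtrl and 0.306 ± 0.012 in SRSF7-OE, and 0.467 ± 0.027 in 3xCTL and 0.409 ± 0.014 in MYC-OE.

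SLC16A1 encodes MCT1, a lactate transporter, and rose in the libraries labelled 3xSR by 0.24 (SE 0.0562, edgeR's adjusted p = 0.0074) and in SRSF3-OE by 0.36 (SE 0.0788, edgeR's adjusted p = 0.00383). It stood at 397, 339.9 and 396 CPM in 1xCtrl, 532, 459 and 460.5 in SRSF3-OE and 331, 341 and 314 in SRSF7-OE. SRSF3-OE lay above the control and SRSF7-OE overlapped it. The direct comparison of SRSF7-OE with SRSF3-OE was -0.56 (SE 0.079, edgeR's adjusted p = 0.000121). SLC16A3, which encodes the exporter MCT4, passed the test in none of the 5 lines, and its controls spread from 101 to 169 CPM in 3xCTL and from 85.1 to 210.5 CPM in 1xCtrl.

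PDK1, the kinase that inhibits pyruvate dehydrogenase, rose in 4 of the 5 lines. It lies at chr2:172555373-172608669 (plus strand). Its levels were 9.35, 10.6 and 9.57 CPM in 3xCTL, 16.9, 16.0 and 17.1 in 3xSR and 23.1, 25.1 and 20.96 in MYC-OE. PDK1 in the second table measured 18.2, 15.6 and 19.7 CPM in 1xCtrl, 21.7, 22.8 and 23.0 with SRSF2-OE, 22.2, 21.7 and 21.5 with SRSF3-OE and 17.8, 18.5 and 18.1 with SRSF7-OE. SRSF7-OE overlapped its control and the other 4 lines did not. PDK1 rose by 0.76 (SE 0.0796, edgeR's adjusted p = 2.64e-05) in 3xSR and 1.23 (SE 0.08, edgeR's adjusted p = 3.37e-07) in MYC-OE, 1.69-fold and 2.34-fold. It rose by 0.33 (SE 0.0776, edgeR's adjusted p = 0.00727) in SRSF2-OE and 0.29 (SE 0.0776, edgeR's adjusted p = 0.0134) in SRSF3-OE, and the value in SRSF7-OE was 0.023. The SRSF3-OE call was lost with upper-quartile scaling, with total counts alone and in a fit of the 2 groups only, with edgeR's adjusted p up to 0.0806. MYC-OE exceeded 3xSR by 0.47 (SE 0.0789, edgeR's adjusted p = 0.000764).

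Of the 12 known HIF target genes apart from the metabolic enzymes, 10 rose and 1 fell in MYC-OE, 8 rose and 1 fell in the libraries labelled 3xSR, and 5 rose and 1 fell in SRSF7-OE. In SRSF2-OE 3 rose and 1 fell, and in SRSF3-OE 2 rose and 3 fell. Their median log2 fold changes were 0.52, 0.26, 0.25, 0.19 and 0.038 in that order. In the same order, 45.8%, 38%, 26.1%, 34.9% and 41.7% of all genes at 5 CPM or more were called in either direction. The counts in SRSF2-OE and SRSF3-OE stand near these shares.

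BNIP3, a receptor for the removal of mitochondria by autophagy, was called higher in all 5 lines and lies at chr10:131966455-131982013 (minus strand). It stood at 13.1, 13.1 and 12.6 CPM in 3xCTL, 24.4, 22.9 and 25.2 in 3xSR and 31.6, 34.4 and 34.3 in MYC-OE. BNIP3 in the second table stood at 25.1, 24.0 and 26.5 CPM in 1xCtrl, 32.7, 31.5 and 31.4 with SRSF2-OE, 34.8, 36.9 and 35.0 with SRSF3-OE and 33.0, 38.4 and 38.1 with SRSF7-OE. No line overlapped its control. The changes were 0.90 (SE 0.0603, edgeR's adjusted p = 6.65e-07) in 3xSR and 1.37 (SE 0.0607, edgeR's adjusted p = 1.36e-08) in MYC-OE, 1.87-fold and 2.59-fold. Against 1xCtrl they were 0.34 (SE 0.0689, edgeR's adjusted p = 0.00315) in SRSF2-OE, 0.50 (SE 0.069, edgeR's adjusted p = 0.000153) in SRSF3-OE and 0.53 (SE 0.069, edgeR's adjusted p = 0.000372) in SRSF7-OE. All 5 calls were kept in every alternative run. The annotation names 39 pseudogenes of BNIP3, and they took 1.32 to 4.15% of the summed counts; with the copies added, the 5 changes ranged from 0.35 to 1.36.
BNIP3L, its paralog, rose in MYC-OE (0.38, SE 0.0713, edgeR's adjusted p = 0.0013), SRSF7-OE (0.37, SE 0.0826, edgeR's adjusted p = 0.00838) and 3xSR (0.23, SE 0.0714, edgeR's adjusted p = 0.0299). The BNIP3L call in 3xSR was lost when 3xCTL replicate 1 or 3 or 3xSR replicate 1 or 2 was left out (edgeR's adjusted p 0.0678 to 0.125). With the GC trend removed the 3xSR value was 0.14 (edgeR's adjusted p = 0.119), and in a fit of the 2 groups only the SRSF7-OE call was lost (edgeR's adjusted p = 0.0532). The log2 ratio of BNIP3 to BNIP3L per kilobase was -0.588 ± 0.054 (SD, n = 3) in 3xCTL, 0.087 ± 0.143 in 3xSR and 0.403 ± 0.112 in MYC-OE.

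EGLN3 encodes the prolyl hydroxylase PHD3, which marks HIF proteins for breakdown and is itself induced by HIF, and lies at chr14:33924231-34462774 (minus strand). It was scarce, at 1.09, 0.772 and 0.978 CPM in 3xCTL, 1.58, 1.28 and 1.37 in 3xSR and 3.92, 3.46 and 3.81 in MYC-OE. EGLN3 in the second table stood at 1.39, 1.04 and 1.64 CPM in 1xCtrl, 3.47, 3.45 and 3.71 with SRSF2-OE, 1.21, 1.24 and 1.24 with SRSF3-OE and 3.72, 3.87 and 3.21 with SRSF7-OE. SRSF3-OE overlapped its control and the other 4 lines did not; levels of the separately scaled tables are not compared. EGLN3 rose by 1.98 (SE 0.15, edgeR's adjusted p = 1.2e-06) in MYC-OE, a 3.93-fold increase, and by 0.57 (SE 0.148, edgeR's adjusted p = 0.0125) in 3xSR. It rose by 1.38 (SE 0.151, edgeR's adjusted p = 4.17e-05) in SRSF2-OE and 1.41 (SE 0.151, edgeR's adjusted p = 9.94e-05) in SRSF7-OE, while SRSF3-OE gave -0.14 (SE 0.15, edgeR's adjusted p = 0.537). Direct comparisons placed SRSF3-OE below SRSF2-OE (-1.53, SE 0.151, edgeR's adjusted p = 1.31e-05) and SRSF7-OE above SRSF3-OE by 1.55 (SE 0.151, edgeR's adjusted p = 5.99e-06). The EGLN3 call in 3xSR was lost when 3xSR replicate 1 was left out (edgeR's adjusted p = 0.056).

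NDRG1, a stress-responsive gene, rose in 4 lines. It stood at 65.0, 45.7 and 63.1 CPM in 3xCTL, 96.7, 81.2 and 85.4 in 3xSR and 139, 144 and 142 in MYC-OE. NDRG1 in the second table stood at 99.6, 93.0 and 92.8 CPM in 1xCtrl, 145, 142 and 128 with SRSF2-OE, 102, 94.6 and 102 with SRSF3-OE and 141, 151 and 142.6 with SRSF7-OE. SRSF3-OE overlapped its control and the other lines did not. The changes were 0.60 (SE 0.121, edgeR's adjusted p = 0.00487) in 3xSR, 1.29 (SE 0.122, edgeR's adjusted p = 3.31e-05) in MYC-OE, 0.54 (SE 0.0631, edgeR's adjusted p = 6.66e-05) in SRSF2-OE and 0.61 (SE 0.0631, edgeR's adjusted p = 7.86e-05) in SRSF7-OE, each kept in every alternative run. Against SRSF3-OE, SRSF7-OE was higher by 0.54 (SE 0.0631, edgeR's adjusted p = 2.56e-05), and SRSF3-OE was lower than SRSF2-OE (-0.48, SE 0.063, edgeR's adjusted p = 0.000126).

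P4HA1 and P4HA2 encode catalytic subunits of collagen prolyl hydroxylase, and ERO1A an oxidase of the endoplasmic reticulum that drives disulfide bond formation. P4HA1 stood at 101, 112 and 103 CPM in 3xCTL, 138, 133 and 132 in 3xSR and 201, 205 and 189 in MYC-OE, and these 3 groups did not overlap. Its changes were 0.35 (SE 0.0545, edgeR's adjusted p = 0.000485) in 3xSR, 0.91 (SE 0.0548, edgeR's adjusted p = 1.6e-07) in MYC-OE and 0.32 (SE 0.0791, edgeR's adjusted p = 0.0139) in SRSF7-OE, and MYC-OE exceeded 3xSR by 0.56 (SE 0.0545, edgeR's adjusted p = 1.9e-05). In a fit of the 2 groups only the SRSF7-OE call was lost (edgeR's adjusted p = 0.0577). P4HA2 rose by less, 0.18 (SE 0.0453, edgeR's adjusted p = 0.0109) in 3xSR and 0.19 (SE 0.0453, edgeR's adjusted p = 0.00561) in MYC-OE. The P4HA2 call in 3xSR was lost when 3xCTL replicate 1 was left out (edgeR's adjusted p = 0.0591). The log2 ratio of P4HA1 to P4HA2 per kilobase was 1.68 ± 0.074 (SD, n = 3) in 3xCTL and 2.398 ± 0.057 in MYC-OE. ERO1A rose by 0.41 (SE 0.0615, edgeR's adjusted p = 0.000258) in MYC-OE and 0.20 (SE 0.0614, edgeR's adjusted p = 0.0273) in 3xSR. The ERO1A call in 3xSR was lost when 3xCTL replicate 1 or 3 or 3xSR replicate 1, 2 or 3 was left out (edgeR's adjusted p 0.0646 to 0.109).

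CA9 and CA12 encode carbonic anhydrases of the cell surface that help tumour cells hold their pH. CA9, at chr9:35673856-35681159 (plus strand), moved in opposite directions. It stood at 6.05, 4.21 and 6.63 CPM in 3xCTL, 4.31, 4.62 and 4.11 in 3xSR and 10.8, 11.4 and 12.04 in MYC-OE. CA9 in the second table stood at 7.19, 8.82 and 6.40 CPM in 1xCtrl, 4.29, 4.42 and 3.60 with SRSF2-OE, 2.95, 2.88 and 2.97 with SRSF3-OE and 8.76, 7.19 and 7.44 with SRSF7-OE. MYC-OE lay wholly above 3xCTL, SRSF2-OE and SRSF3-OE wholly below 1xCtrl, and 3xSR and SRSF7-OE overlapped their controls. CA9 rose by 1.02 (SE 0.14, edgeR's adjusted p = 0.000144) in MYC-OE and changed by -0.86 (SE 0.129, edgeR's adjusted p = 0.000421) in SRSF2-OE and -1.35 (SE 0.131, edgeR's adjusted p = 9.34e-06) in SRSF3-OE, the last a 2.55-fold decrease. Values in 3xSR and SRSF7-OE were -0.37 (SE 0.14, edgeR's adjusted p = 0.0657) and 0.062; without 3xCTL replicate 2 the 3xSR decrease was called. The direct comparisons gave 1.39 (SE 0.142, edgeR's adjusted p = 2.57e-05) for MYC-OE against 3xSR and 1.41 (SE 0.131, edgeR's adjusted p = 3.84e-06) for SRSF7-OE against SRSF3-OE. Of its 1670 exonic bases, 643 overlap a gene on the opposite strand, and the strand setting of the counting is not given in the sources used here.
CA12 moved otherwise: it was the 1 HIF target of the set called lower in MYC-OE. It stood at 13, 15.6 and 15.5 CPM in 3xCTL, 11.1, 10.3 and 9.95 in 3xSR, 11.2, 11.2 and 10.6 in MYC-OE, 10.5, 10.4 and 11.1 in 1xCtrl and 6.22, 5.51 and 5.57 in SRSF3-OE. SRSF2-OE (9.77, 9.98 and 9.22 CPM) and SRSF7-OE (11.0, 11.4 and 10.4 CPM) did not pass the test. No 3xSR, MYC-OE or SRSF3-OE library overlapped its control. The changes were -0.49 (SE 0.084, edgeR's adjusted p = 0.000958) in 3xSR, -0.42 (SE 0.0837, edgeR's adjusted p = 0.00216) in MYC-OE and -0.89 (SE 0.0806, edgeR's adjusted p = 5.4e-06) in SRSF3-OE, all kept in every alternative run. The log2 ratio of CA9 to CA12 per kilobase was 0.725 ± 0.421 (SD, n = 3) in 3xCTL and 2.18 ± 0.115 in MYC-OE.

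**Figure D4:**
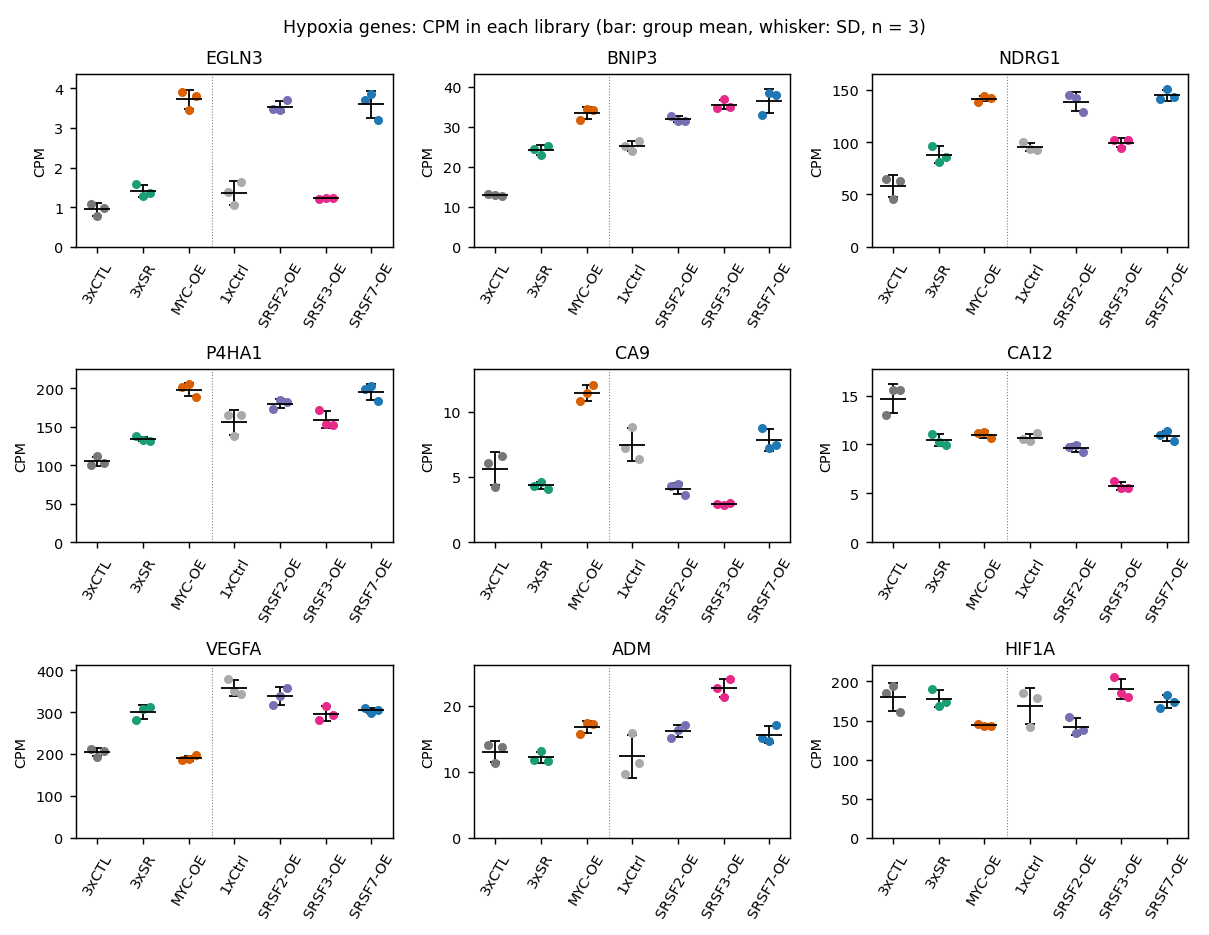
CPM of 9 hypoxia genes in each library (points), with the group mean (bar) and SD (whisker, n = 3); the dotted line parts the 2 count tables, which were scaled separately. Within their own tables, EGLN3 is high in MYC-OE, SRSF2-OE and SRSF7-OE (3.21 to 3.92 CPM), and CA9 is highest in MYC-OE and lowest in SRSF3-OE.

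The secreted factors VEGFA, which drives vessel growth, and ADM, the vasodilator peptide adrenomedullin, did not move together. VEGFA lies at chr6:43770184-43786487 (plus strand) and stood at 212, 193 and 207 CPM in 3xCTL, 282, 308 and 311 in 3xSR and 185, 188 and 196 in MYC-OE. VEGFA in the second table stood at 380.0, 349 and 343 CPM in 1xCtrl, 317, 339 and 358 with SRSF2-OE, 280.3, 316 and 292 with SRSF3-OE and 309, 297 and 305 with SRSF7-OE. 3xSR lay above its control, SRSF3-OE and SRSF7-OE lay below theirs, and MYC-OE and SRSF2-OE overlapped theirs. VEGFA rose by 0.56 (SE 0.0558, edgeR's adjusted p = 1.78e-05) in 3xSR and fell in SRSF3-OE (-0.27, SE 0.0661, edgeR's adjusted p = 0.00733) and SRSF7-OE (-0.23, SE 0.0661, edgeR's adjusted p = 0.0278). The VEGFA call in SRSF7-OE was lost when 1xCtrl replicate 1 or SRSF7-OE replicate 2 was left out (edgeR's adjusted p 0.0563 to 0.0576). It was also lost in a fit of the 2 groups only, and the SRSF3-OE call was lost with replicate number as a block and the GC trend removed together (edgeR's adjusted p = 0.0598). The value in MYC-OE was -0.10 (SE 0.0557, edgeR's adjusted p = 0.177); it was called lower without 3xCTL replicate 2, and with the GC trend removed (-0.12, edgeR's adjusted p = 0.0141). MYC-OE was lower than 3xSR in the direct comparison (-0.66, SE 0.0559, edgeR's adjusted p = 7.13e-06). ADM stood at 14.1, 11.3 and 13.8 CPM in 3xCTL, 11.8, 13.2 and 11.6 in 3xSR, 15.8, 17.4 and 17.3 in MYC-OE, 15.2, 16.4 and 17.0 in SRSF2-OE and 15.1, 14.7 and 17.1 in SRSF7-OE. It stood at 9.66, 15.9 and 11.4 CPM in 1xCtrl and 22.7, 21.3 and 24.0 in SRSF3-OE, a change of 0.88 (SE 0.145, edgeR's adjusted p = 0.000671). The SRSF3-OE and MYC-OE libraries lay above all of their controls. It rose in MYC-OE by 0.36 (SE 0.0928, edgeR's adjusted p = 0.00912), and the SRSF2-OE and SRSF7-OE values were 0.39 and 0.34, both called without 1xCtrl replicate 2. ANKRD37, an ankyrin repeat gene at 0.377 to 0.997 CPM, with 909 of its 2580 exonic bases overlapping a gene on the opposite strand, had a change of 0.62 (SE 0.223, edgeR's adjusted p = 0.0484) in MYC-OE, which was lost without any 1 of the 6 libraries compared (edgeR's adjusted p 0.0657 to 0.162) and once replicate number entered the model as a block.

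HIF1A, the oxygen-regulated subunit, was called in 1 line at the RNA level. It lies at chr14:61695513-61748259 (plus strand) and stood at 186, 194 and 160.5 CPM in 3xCTL, 190.0, 169 and 174 in 3xSR and 145, 144 and 142.6 in MYC-OE. HIF1A in the second table stood at 185, 142 and 178 CPM in 1xCtrl, 154, 134 and 138 with SRSF2-OE, 205, 186 and 179.9 with SRSF3-OE and 165, 182 and 174 with SRSF7-OE. MYC-OE alone did not overlap its control. HIF1A fell in MYC-OE (-0.33, SE 0.0696, edgeR's adjusted p = 0.00318), the line in which 10 of the 12 targets rose. Values elsewhere were -0.019 in 3xSR, -0.24 with SRSF2-OE, 0.18 with SRSF3-OE and 0.047 with SRSF7-OE. Without 1xCtrl replicate 2, or with the GC trend removed, HIF1A was also called lower in SRSF2-OE (GC trend removed: -0.16, edgeR's adjusted p = 0.0477), and with the GC trend removed in 3xSR (-0.14, edgeR's adjusted p = 0.0242). SRSF3-OE was higher than SRSF2-OE in the direct comparison (0.42, SE 0.0952, edgeR's adjusted p = 0.00535).

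Lines of the same table were also compared directly, which tests whether their effects against the shared control differ. MYC-OE differed from 3xSR in 25 of the 37 genes, 21 higher and 4 lower, where 34.9% of all genes were called and 50% of genes at 5 CPM or more, against 67.6% of the set. The genes higher in MYC-OE comprised both glucose transporters, 5 of 8 preparatory enzymes, PFKFB3, 5 of 7 payoff enzymes, PDK1 and 7 of 12 HIF targets; those lower were PFKFB4, SLC16A1, VEGFA and HIF1A. The calls of PFKFB4 and SLC16A1 were each lost without any 1 of the 6 libraries compared (edgeR's adjusted p 0.0503 to 0.11 and 0.0658 to 0.119). PFKL was lost without 3xSR replicate 1 or 3 or MYC-OE replicate 3 (edgeR's adjusted p 0.0513 to 0.0582). PGK1 was lost without 3xSR replicate 3 or MYC-OE replicate 1 (edgeR's adjusted p 0.0512 to 0.0521). ERO1A was lost without 3xSR replicate 3 or MYC-OE replicate 1 or 2 (edgeR's adjusted p 0.0576 to 0.0802). The HIF1A difference was lost with the GC trend removed (-0.10, edgeR's adjusted p = 0.0832). The PFKFB3 difference (0.14, SE 0.0476, edgeR's adjusted p = 0.0341) was lost with total counts alone and with the replicate block, and changed sign with the GC trend removed (-0.039, edgeR's adjusted p = 0.518). SRSF7-OE differed from SRSF3-OE in 18 genes, 11 higher and 7 lower (35.2% of all genes called). The set's share of 48.6% is level with the 48% of genes at 5 CPM or more. Higher in SRSF7-OE were SLC2A1, SLC2A3, ALDOC, PGAM1, ENO2, PKM, CA9, CA12, NDRG1, EGLN3 and P4HA1, and lower were HK1, HK2, PFKFB3, LDHA, SLC16A1, PDK1 and ADM. The PGAM1 call in SRSF7-OE against SRSF3-OE was lost when SRSF3-OE replicate 2 or 3 or SRSF7-OE replicate 1, 2 or 3 was left out (edgeR's adjusted p 0.0526 to 0.0786). The HK1 call in SRSF7-OE against SRSF3-OE was lost when SRSF3-OE replicate 1 or 3 or SRSF7-OE replicate 1 or 2 was left out (edgeR's adjusted p 0.0507 to 0.0774). The PFKFB3 call in SRSF7-OE against SRSF3-OE was lost when SRSF3-OE replicate 3 or SRSF7-OE replicate 2 was left out (edgeR's adjusted p 0.0536 to 0.0645). The ADM call in SRSF7-OE against SRSF3-OE was lost when SRSF3-OE replicate 1, 2 or 3 or SRSF7-OE replicate 1 or 2 was left out (edgeR's adjusted p 0.0577 to 0.116). With total counts alone the calls of HK1, PFKFB3, LDHA, PDK1 and ADM between these lines were lost. SRSF3-OE differed from the libraries labelled SRSF2-OE in 14 genes, 4 higher and 10 lower (26.8% called), a share of 37.8% against 36.8% of genes at 5 CPM or more. SRSF7-OE differed from the libraries labelled SRSF2-OE in 9 genes, 4 higher and 5 lower (24.2% called), and in 14 without SRSF2-OE replicate 1. That share, 24.3%, lay below the 34.5% of genes at 5 CPM or more.

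Some GC-rich genes of the set spread widely among the control libraries, in the order of those libraries' GC slopes. PFKL transcripts are 64% GC, those of SLC16A3 65.6% and those of ALDOA 59.7%. PFKL stood at 88.5, 50.2 and 80.5 CPM in 3xCTL and 50.05, 117 and 35.8 in 1xCtrl, so that replicate 2 was the lowest 3xCTL library and the highest 1xCtrl library. SLC16A3 stood at 169, 101 and 161 and 112, 210.5 and 85.1 CPM, and ALDOA at 657, 459 and 602 and 401, 648 and 329 CPM, in the same order of libraries. With the GC trend removed, PFKL was called lower in 3xSR (-0.21, SE 0.0518, edgeR's adjusted p = 0.00576) and higher in MYC-OE (0.20, SE 0.0514, edgeR's adjusted p = 0.00527). SLC16A3 was then called higher in 3xSR (0.11, SE 0.0358, edgeR's adjusted p = 0.0235) and SRSF3-OE (0.33, SE 0.0467, edgeR's adjusted p = 5.19e-05), and lower in MYC-OE (-0.29, SE 0.0357, edgeR's adjusted p = 8.09e-06). In 3xSR this turned the sign of SLC16A3, whose value without the correction was -0.20. ALDOA was then called higher in SRSF7-OE (0.41, SE 0.0967, edgeR's adjusted p = 0.00622). PFKP, at 100.5, 138 and 96.4 CPM in 1xCtrl, was called higher in every line once the trend was removed, with values from 0.20 in SRSF7-OE to 0.42 in SRSF3-OE beside 0.51 in MYC-OE.

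**Figure D5:**
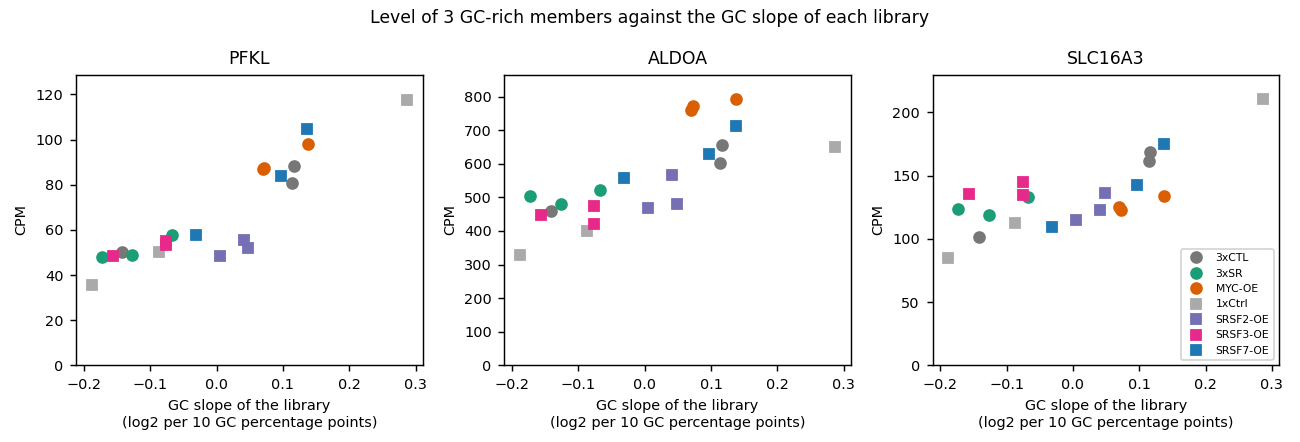
CPM of PFKL, ALDOA and SLC16A3 (vertical axes) against the GC slope of each of the 21 libraries (horizontal axes, log2 units per 10 GC percentage points); circles are the first count table and squares the second, and colours give the group. The 1xCtrl libraries spread from -0.188 to 0.287 in slope, and PFKL in them from 35.8 to 117 CPM.

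Genes of the same pathways outside the set did not move as 1 block. Counts of these lists are to be read against the shares of all genes called, 35.3% in MYC-OE, 29% in 3xSR, 23.5% with SRSF2-OE, 29.2% with SRSF3-OE and 17.3% with SRSF7-OE, and against the higher shares at 5 CPM or more. Of 26 further genes of glycolysis and hexose or lactate transport, 21 passed the filter; 5 rose and 7 fell in MYC-OE, 1 and 8 in 3xSR, 4 and 4 in SRSF2-OE, 4 and 9 in SRSF3-OE, and 2 and 1 in SRSF7-OE. The glucose transporter gene SLC2A10 averaged 0.513 CPM in 3xCTL, 1.14 in 3xSR and 4.79 in MYC-OE, a change in MYC-OE of 3.22 (SE 0.172, edgeR's adjusted p = 6.34e-08). It averaged 1.058 CPM in 1xCtrl, 0.436 in SRSF3-OE and 3.96 in SRSF7-OE, with changes of -1.28 (SE 0.142, edgeR's adjusted p = 2.8e-05) and 1.90 (SE 0.139, edgeR's adjusted p = 7.09e-06). SLC2A10 also rose in 3xSR (1.15, SE 0.166, edgeR's adjusted p = 0.000296) and SRSF2-OE (1.42, SE 0.138, edgeR's adjusted p = 1.69e-05). The lactate transporter gene SLC16A7 (MCT2) fell in MYC-OE (-1.01, SE 0.0752, edgeR's adjusted p = 1.05e-06) and in 3xSR (-0.73, SE 0.0749, edgeR's adjusted p = 2.05e-05), and also in SRSF2-OE (-0.85) and SRSF3-OE (-0.41). SLC2A12 and FBP1, the latter a gluconeogenic enzyme, fell in SRSF3-OE (-2.04, SE 0.149, edgeR's adjusted p = 8.98e-07, and -1.76, SE 0.194, edgeR's adjusted p = 2.54e-05) and in SRSF2-OE (-1.68, SE 0.147, edgeR's adjusted p = 8.34e-06, and -1.28, SE 0.19, edgeR's adjusted p = 0.000395). SLC2A12 also fell in 3xSR (-0.62, SE 0.165, edgeR's adjusted p = 0.0148).

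Of 15 genes of pyruvate entry into mitochondria, all passed the filter, and 3 rose and 6 fell in MYC-OE, 3 and 3 in 3xSR, 1 and 4 in SRSF2-OE, and 2 and 2 in both SRSF3-OE and SRSF7-OE. Among all genes at 5 CPM or more, 45.8% were called in MYC-OE, 38% in 3xSR, 34.9% with SRSF2-OE, 41.7% with SRSF3-OE and 26.1% with SRSF7-OE. The counts in 3xSR, SRSF2-OE and SRSF7-OE stand near these shares, and the SRSF3-OE count lies below its share. Only the MYC-OE count lies above its share, a difference that was not tested. The kinase genes PDK3 and PDK4 rose in MYC-OE (0.72, SE 0.0934, edgeR's adjusted p = 9.45e-05, and 1.27, SE 0.159, edgeR's adjusted p = 7.36e-05) and the opposing phosphatase gene PDP1 fell (-0.74, SE 0.0708, edgeR's adjusted p = 8.5e-06), whereas PDP1 rose in 3xSR (0.40, SE 0.0703, edgeR's adjusted p = 0.00111). PDP1 also fell in SRSF2-OE (-0.33) and SRSF7-OE (-0.35). PDK4 rose in 3xSR (0.55, SE 0.16, edgeR's adjusted p = 0.022) and fell in SRSF2-OE (-0.91, SE 0.24, edgeR's adjusted p = 0.0147) and SRSF3-OE (-0.72, SE 0.239, edgeR's adjusted p = 0.0378), and PDK3 rose in 3xSR (0.37) and SRSF7-OE (0.38). Among pentose phosphate genes, TKT (-0.60, SE 0.0846, edgeR's adjusted p = 0.00027) and PGLS (-0.35, SE 0.0914, edgeR's adjusted p = 0.0128) fell in 3xSR, and TALDO1 rose in MYC-OE (0.30, SE 0.066, edgeR's adjusted p = 0.00362). PGLS also fell in SRSF2-OE (-0.41) and SRSF3-OE (-0.43), and TALDO1 also rose in SRSF2-OE (0.44) and SRSF7-OE (0.51).

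Of 35 further HIF target genes, all tested, 20 rose and 2 fell in MYC-OE, 15 rose and 7 fell in 3xSR, 9 and 2 in SRSF7-OE, 6 and 5 in SRSF2-OE, and 10 and 6 in SRSF3-OE, with medians of 0.28, 0.14, 0.17, 0.079 and 0.0065 on the log2 scale. The counts in SRSF3-OE stand near the 27.1% and 14.5% of genes at 5 CPM or more called higher and lower. Those in SRSF2-OE stand near the corresponding 17.5% and 17.3%. The collagen cross-linking enzyme genes LOXL2 and LOX led the list: LOXL2 averaged 2.58 CPM in 3xCTL, 8.76 in 3xSR and 31.2 in MYC-OE (3.59 in MYC-OE, SE 0.125, edgeR's adjusted p = 2.03e-09), and LOX averaged 7.32, 20.8 and 17.9 CPM. LOX also rose in SRSF3-OE (1.35, SE 0.09, edgeR's adjusted p = 4.58e-07), SRSF2-OE (0.73) and SRSF7-OE (0.32), and LOXL2 in SRSF7-OE (0.71). PPFIA4 fell in SRSF3-OE (-1.39, SE 0.195, edgeR's adjusted p = 0.000185) and rose in MYC-OE (0.41). Of 19 genes that regulate HIF, 3 rose and 7 fell in MYC-OE, 2 and 3 in 3xSR, 3 and 2 in SRSF2-OE, and 6 and 2 in both SRSF3-OE and SRSF7-OE. The counts in 3xSR and SRSF2-OE are below the 38% and 34.9% of genes at 5 CPM or more that were called. The SRSF3-OE count stands near its 41.7%. Those in MYC-OE and SRSF7-OE lie above their 45.8% and 26.1%, differences that were not tested. EGLN2, another HIF prolyl hydroxylase gene, fell in MYC-OE (-0.74, SE 0.0742, edgeR's adjusted p = 1.16e-05), and EPAS1, which encodes HIF2A, fell in MYC-OE (-0.37, SE 0.054, edgeR's adjusted p = 0.000219) and in 3xSR (-0.35, SE 0.054, edgeR's adjusted p = 0.000435). EGLN2 also fell in 3xSR (-0.22) and SRSF7-OE (-0.36), whereas EPAS1 rose in SRSF7-OE (0.29). VHL, the ubiquitin ligase subunit that binds hydroxylated HIF, fell in SRSF2-OE (-0.48, SE 0.0723, edgeR's adjusted p = 0.000421) and MYC-OE (-0.20). SIAH2, a ubiquitin ligase for the prolyl hydroxylases, was called higher in all 5 lines, by 0.25 in 3xSR, 0.35 in MYC-OE, 0.33 with SRSF2-OE, 0.52 with SRSF3-OE and 0.33 with SRSF7-OE (edgeR's adjusted p 5.31e-05 to 0.00444).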

How the data were processed

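Polyadenylated RNA of 21 HCC1806 libraries was sequenced on a stranded protocol, per the labels' protocols. The authors deposited 2 tables of whole-number read counts per Ensembl gene. Per the submitters' processing notes, Trimmomatic 0.39, STAR and StringTie 2.1.3b were used with GRCh38.p13; the counting step, its strand setting and the annotation are not given in the sources used here. Gene positions, merged exon lengths and GC content came from GENCODE 29 (GRCh38).

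Each table was fitted on its own, with all its groups, in edgeR 4.0.16 (R 4.3.3): filterByExpr (minimum count 10, minimum total 15), TMM scaling and a robust quasi-likelihood test, with Benjamini-Hochberg adjustment over all genes tested and a threshold of 0.05. Standard errors were derived from the fold change and its F statistic. CPM were TMM-scaled within a table, so levels were not tested across tables. The procedure was tested on simulated data. The genes, pathway lists and tests were chosen with earlier results of these data known.

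Values in every library are given for the 4 genes per comparison with the largest change among those called without overlap, for genes called in opposite directions, and for SLC2A1, HK2, LDHA, PDK1, CA9, VEGFA and HIF1A. Paralogs are set side by side. Of each other pathway list, up to 3 genes per comparison could be named by the same criterion. Alternatives were RLE, upper-quartile and total-count scaling, 2 other filters, limma-voom (limma 3.58.1), DESeq2 1.42.0, fits of the 2 groups only, removal of each library's GC trend (50 GC bins, prior count 2), the replicate number as a block, and each library left out.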

Additional observations from a re-analysis of the deposited data

Results flagged for a closer look

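In all, 7 genes of the set had effects of opposite sign in different lines, with every library of each line beyond its control. The share of all genes that meet this criterion was not computed, and 17.3% to 35.3% of all genes were called in each line. The count is therefore not shown to be particular to the set. Of the differences between these opposite effects, 3 lie within a table and were tested directly. SLC2A3 differed by 1.0354 on the log2 scale between the SRSF7-OE and SRSF3-OE effects (edgeR's adjusted p = 8.56e-06), and ALDOC by 1.2652 (edgeR's adjusted p = 2.03e-07). PKM differed by 0.4198 between the MYC-OE and 3xSR effects (edgeR's adjusted p = 0.000263). The other 10 differences span the tables, which have different controls and were scaled separately, and were not tested. The SRSF3-OE effect minus the MYC-OE effect was -0.7587 for SLC2A1, -1.2703 for SLC2A3, -1.4461 for ALDOC and -2.3688 for CA9. For CA9, the SRSF2-OE effect minus the MYC-OE effect was -1.8834. Relative to the 3xSR effect, GAPDH differed by 0.5056 in SRSF7-OE, PKM by 0.6689 in SRSF2-OE and 0.5873 in SRSF7-OE, and VEGFA by -0.8287 in SRSF3-OE and -0.7906 in SRSF7-OE.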

How the results depend on the processing

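Of the 88 calls made for the 37 genes against a control, 59 were kept in every alternative run, 29 were lost in at least 1, and 0 were reversed. Of 238 recomputed counts of called genes, 204 stayed within 1.5 times the reported count and 34 did not; the cause was not tested. In MYC-OE the genes called lower were 4 with total counts alone and 6 with the GC trend removed. In SRSF2-OE the genes called lower were 4 with total counts alone, 3 with no filter and 4 with the GC trend removed, and 16 were then called higher. In SRSF3-OE 6 were called higher with total counts alone and 6 in a fit of the 2 groups only. Such a fit gave SRSF7-OE 7 higher and 0 lower, and GC removal gave it 3 lower. SRSF7-OE and SRSF2-OE differed in 14 genes with total counts alone, 15 in a fit of the 2 groups only and 14 with the GC trend removed. PFKFB3 in MYC-OE against 3xSR reversed to -0.0385 with the GC trend removed. Total-count scaling shifted the median of all genes in SRSF3-OE by -0.1114 on the log2 scale.

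Same-numbered libraries did not deviate together (r from -0.362 to 0.103; every pair over 0.1 in 0 of 9 comparisons), so the numbers are not a pairing. The replicate block lost ANKRD37 in MYC-OE, TPI1 in SRSF3-OE, and PGK1 and VEGFA in SRSF7-OE, which left 0 lower there. Block and GC removal together gave 6 lower in MYC-OE, 16 higher and 4 lower in SRSF2-OE, 3 lower in SRSF7-OE, 14 genes for SRSF7-OE against SRSF2-OE, and -0.0386 for PFKFB3 in MYC-OE against 3xSR.

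With each library left out in turn, 3xSR had 9 to 14 higher and 2 to 11 lower, MYC-OE 22 to 24 and 2 to 6, SRSF2-OE 7 to 14 and 1 to 3, SRSF3-OE 8 to 12 and 7, and SRSF7-OE 8 to 19 and 0 to 2. MYC-OE against 3xSR ranged from 19 to 23 genes, SRSF3-OE against SRSF2-OE from 10 to 12, SRSF7-OE against SRSF2-OE from 6 to 14, and SRSF7-OE against SRSF3-OE from 14 to 17. EGLN3 and ANKRD37 had the lowest levels per kilobase of the set, so counting error weighs most on them.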
